A study of Mus with 7 samples.

Results

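Kcnn2, the gene of a small-conductance calcium-activated potassium channel, was described on microarrays of mouse hearts from a study of doxorubicin (DOX)-induced myocardial injury. Kcnn2 is 1 gene of the 46 that could be named among probes printed 10 times on these arrays, and it was chosen by its measured difference between the DOX and control (CON) groups. Its levels in the groups are therefore given as a description, with no test. The probe was found by its RefSeq transcript identifier (NM_080465), and it was the only 1 named for Kcnn2 among the probes printed 10 times. Other probes were not searched for Kcnn2. Each of 7 hearts from male C57BL/6J mice was measured on its own single-colour Agilent array, which carries probes for mouse mRNAs and lncRNAs. In the CON group were 3 mice given saline (replicates 1, 2 and 3), and in the DOX group were 4 mice given DOX at 15 mg/kg (replicates 1, 2, 4 and 5). Both were given as a single intraperitoneal injection, the hearts were taken on day 3, and the age of the mice is not given in the sources used here. The samples were pieces of heart tissue, so fewer cells that express a gene and less RNA per cell cannot be told apart.

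The channel subunit encoded by Kcnn2, also called SK2, forms potassium channels that are opened by intracellular calcium and not by voltage. The potassium current that follows links calcium entry and release to repolarization of the membrane. In the heart these channels are known mainly for repolarization of atrial myocytes and the conduction system, and in failing ventricles the channel has been studied for its part in arrhythmia. Kcnn2 is also expressed widely in neurons, where the current follows the action potential. DOX belongs to the anthracyclines, which bind DNA and poison topoisomerase II.

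The normalized level of Kcnn2 was lower on every DOX array than on every CON array, although relative to the 5′ control spots of Gapdh and Pgk1 the groups overlapped. On the normalized log2 scale, the signal was 11.21, 11.29 and 11.39 on CON replicates 1, 2 and 3. It was 9.16 on DOX replicate 1, 8.73 on DOX replicate 2, 9.08 on DOX replicate 4 and 7.43 on DOX replicate 5. The CON arrays thus lay close together, and the DOX arrays fell into 3 arrays near each other and 1 array, replicate 5, well below them. The group means were 11.30 ± 0.09 (SD, n = 3) in the CON group and 8.60 ± 0.80 (SD, n = 4) in the DOX group. The difference, DOX minus CON, was -2.70 on the log2 scale with a standard error of 0.41, which is a 6.48-fold lower level. The lowest CON array was 2.05 above the highest DOX array, so the groups did not overlap. Of the 55657 probes tested on these arrays, 36.3% had every DOX array below every CON array, and 31% had every DOX array above every CON array.

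**Figure D1:**
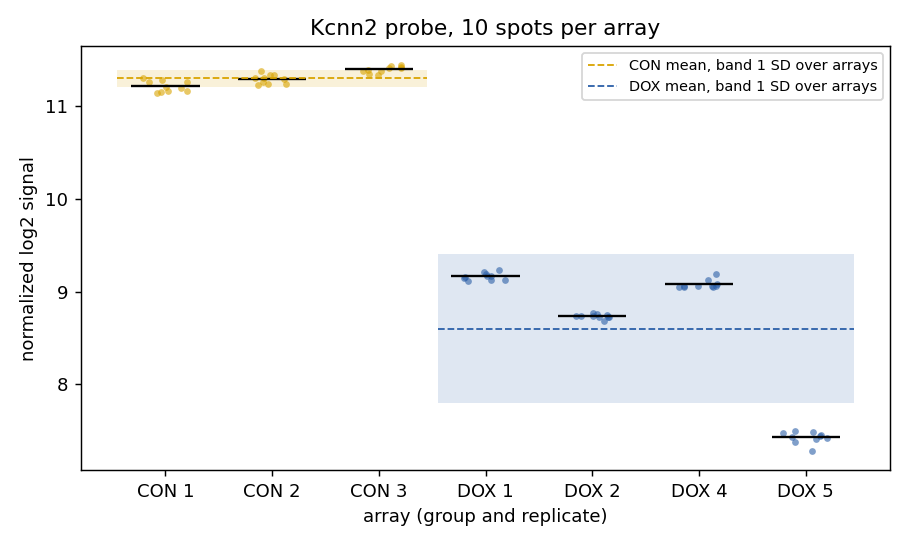
Normalized log2 signal (y axis) of the 10 Kcnn2 spots on each of the 7 arrays (x axis), with a black line at the mean of each array and a dashed line and band at the mean and 1 SD over the arrays of a group. The CON arrays lie between 11.21 and 11.39, and the DOX arrays between 7.43 and 9.16.

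The spots of 1 array measure the same RNA, so they show the precision of printing and scanning and not the spread between mice. The 10 Kcnn2 spots were spread over the array from row 7 to row 383. Within an array the SD of the spots was between 0.02 and 0.06 on the normalized log2 scale, and the coefficient of variation of the unnormalized signal was 1.66% to 4.71%. On DOX replicate 5 the 10 spots lay between 7.28 and 7.50, while those of the next lowest array, DOX replicate 2, lay between 8.68 and 8.76. The spots of DOX replicate 2 in turn lay below those of DOX replicate 4 (9.05 to 9.19) and DOX replicate 1 (9.11 to 9.23). In the order of the levels, the spots of neighbouring arrays overlapped between DOX replicates 1 and 4, between CON replicates 1 and 2 and between CON replicates 2 and 3, and did not overlap between the other neighbours. All 70 spots were well above background, none was saturated and none was marked as non-uniform. A spot on DOX replicate 4 and a spot on DOX replicate 5 were marked as differing from the other spots of the probe, and without them the difference between the groups was -2.69.

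Seen against the mean of the CON group, Kcnn2 was 4.39-fold lower on DOX replicate 1, 4.65-fold lower on DOX replicate 4, 5.91-fold lower on DOX replicate 2 and 14.6-fold lower on DOX replicate 5. The 3 DOX arrays other than replicate 5 had a mean of 8.99 and an SD of 0.23. DOX replicate 5 was 1.56 below that mean, whereas the CON arrays spanned 0.18 in all. Over the DOX arrays the SD of Kcnn2 was 0.80, against a median of 0.20 over all probes tested, and 3.41% of these probes had a larger one. Over the CON arrays its SD was 0.09, against a median of 0.15. The spread of Kcnn2 among DOX mice was therefore wide and its spread among CON mice was not, but a difference in spread was not tested with 3 and 4 arrays. Without DOX replicate 5 the difference between the groups was -2.29, with a standard error of 0.14.

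The processed signal, which is background-subtracted within the array but not yet normalized between arrays, was also lower in every DOX array. For Kcnn2 it was 1247, 1583 and 1707 on CON replicates 1, 2 and 3, and 751, 603, 845 and 242 on DOX replicates 1, 2, 4 and 5. The local background around the Kcnn2 spots was between 12.5 and 16 in the same units, so that the probe was measured on both sides and its fold change is not a bound. The mean signal of Kcnn2 was 2.48-fold lower in the DOX group before any normalization. At the same time the DOX arrays were brighter as a whole. The 75th percentile of the spots that are not controls ranged from 201.2 to 246.3 on CON arrays and from 461.1 to 564.7 on DOX arrays, a mean 2.26-fold higher. Kcnn2 thus moved against the brightness of the arrays, and correcting for this brightness made its difference larger.

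**Figure D2:**
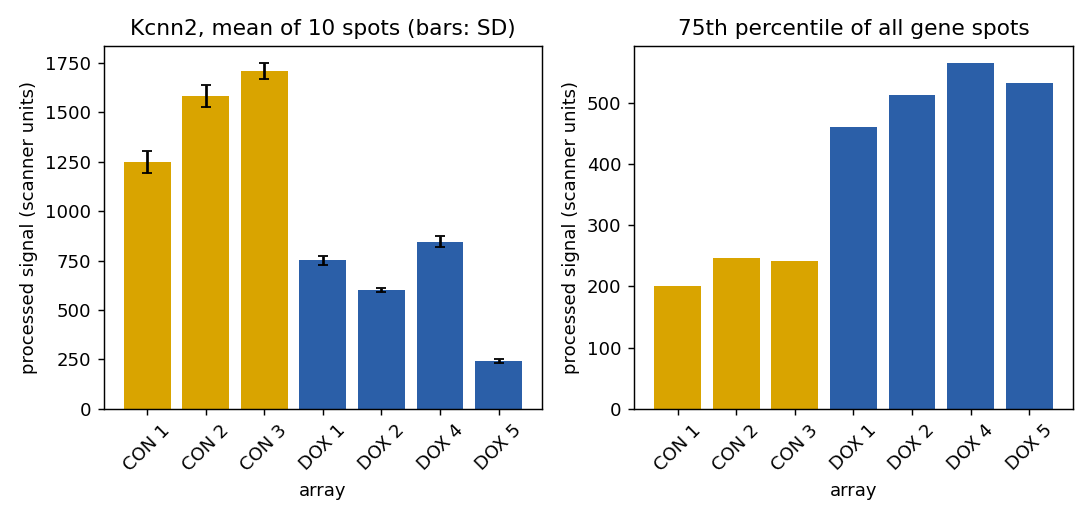
Processed signal in scanner units on each array (x axis). Left, the mean of the 10 Kcnn2 spots with their SD, which ranges from 1247 to 1707 on CON arrays and from 242 to 845 on DOX arrays. Right, the 75th percentile of the spots that are not controls, which is higher on the DOX arrays.

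The arrays also differed in ways that treatment and scanning share. The scan session of the CON arrays was not that of the DOX arrays, so that for Kcnn2 the session and the treatment cannot be told apart. The bright-corner spots, which are printed to mark the corners and measure no mouse transcript, had a median processed signal of 3362 to 3461 on CON arrays and of 21808 to 29522 on DOX arrays, and their part in the Kcnn2 result was not tested. By the position recorded in the files, the CON arrays and DOX replicate 5 lay in row 2 of a slide and the other DOX arrays in row 1. Which arrays shared a slide was not analysed here, but CON replicate 1 and DOX replicate 5 had the same position and so lay on different slides. The part of slide and position in the Kcnn2 result was not tested.

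The control spots of Gapdh and Pgk1, glycolytic enzymes made by most cells, also moved with the group, and by more for the spots named with a 5 (here called 5′) than for those named with a 3 (3′). Gapdh differed by -1.18 at the 3′ spots and by -2.22 at the 5′ spots, and Pgk1 by -1.40 and -2.42, on the normalized log2 scale. Without normalization the log2 ratios of DOX over CON were closer to 0. They were -0.28 (3′) and -1.06 (5′) for Gapdh, and -0.20 (3′) and -1.44 (5′) for Pgk1. The 5′ signal minus the 3′ signal of Gapdh was -0.92 ± 0.02 (SD, n = 3) in the CON group and -1.96 ± 0.10 (SD, n = 4) in the DOX group, and that of Pgk1 was -6.77 ± 0.17 and -7.79 ± 0.19. The 5′ spots thus lost about as much against the 3′ spots in both genes, and such a shift is 1 of the signs used to judge RNA quality. Kcnn2 relative to the 3′ spots of Gapdh was lower in the DOX group by a difference of -1.52, and relative to the 3′ spots of Pgk1 by -1.30, with no overlap of the groups. Relative to the 5′ spots the groups overlapped. Against Gapdh 5′, Kcnn2 was at -4.33, -4.24 and -4.09 on the CON arrays and at -4.18, -4.63, -4.24 and -5.73 on DOX replicates 1, 2, 4 and 5, a difference of -0.48 with a standard error of 0.37. Against Pgk1 5′ it was at 2.67, 2.53 and 3.05 on the CON arrays and at 2.81, 2.90, 2.76 and 1.44 on DOX replicates 1, 2, 4 and 5, a difference of -0.27 with a standard error of 0.38. On both of these scales DOX replicate 5 was the array that lay apart, and without it the differences were -0.13 and 0.073. The part of RNA quality in the Kcnn2 result was not tested, and where the Kcnn2 probe lies along its transcript was not analysed here.

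The size of the Kcnn2 difference was also compared over several ways of scaling the arrays as a whole, and relative to other probes. With each array scaled to its 75th percentile it was -2.62, and with each array scaled to its median it was -2.31. With the normexp background correction it was -2.48. Relative to the Actb probe, for cytoplasmic actin, it was -2.43. Relative to the median of the other tested probes printed 10 times it was -1.87, since most of those probes were also lower in the DOX group. With no normalization it was -1.44. All of these values were thus farther from 0 than those relative to Gapdh 5′, Pgk1 3′ and Pgk1 5′. For Pgk1 3′ the gap was small, at -1.30 (standard error 0.34) against -1.44 (standard error 0.43) with no normalization. The value relative to Gapdh 3′, -1.52, was farther from 0 than that with no normalization. The median difference of all probes tested was -0.07 with quantile normalization and -0.45 with scaling to the 75th percentile. Relative to these medians the difference of Kcnn2 was -2.62 and -2.17.

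**Figure D3:**
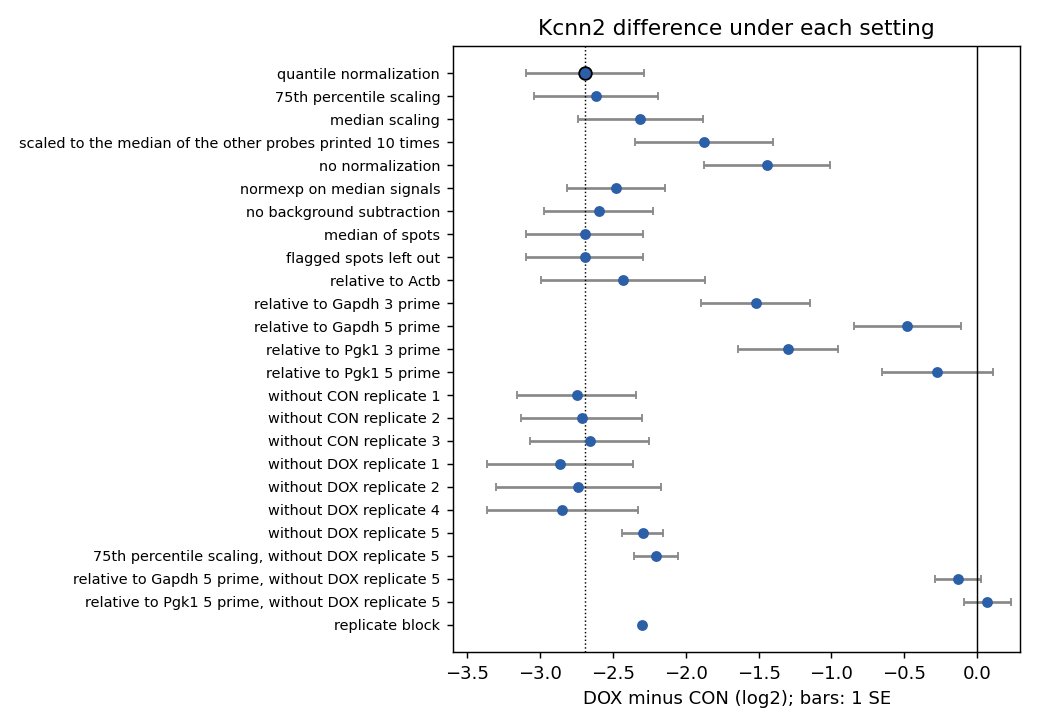
Kcnn2 difference between the groups on the log2 scale (x axis; DOX minus CON, bars 1 standard error, none for the replicate block) under each scaling, background correction and left-out array (y axis). The dotted line marks -2.70, the value with quantile normalization of all 7 arrays, and the values nearest 0 (-0.48, -0.27, -0.13 and 0.073) are those relative to the 5′ control spots.

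To place Kcnn2 beside the rest of the array, all probes were tested between the groups with limma, and a probe was called at more than 2-fold change and a Benjamini-Hochberg adjusted p under 0.05. In the DOX group 15.5% of the probes tested were called higher and 16.2% were called lower. These are 8603 and 8990 probes. The counts depended on the processing, with 6147 higher and 15323 lower with scaling to the 75th percentile, and 4792 higher and 4312 lower with normexp. The share of higher probes among all calls was 48.9% with quantile normalization and 28.6% with scaling to the 75th percentile. A difference lower than that of Kcnn2 was found for 0.585% of the probes tested. Since Kcnn2 was chosen on this difference, its place at the end of the range is a description and no evidence of its own.

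Among the named genes with 10 spots per array, Kcnn2 stood at the lower end, which is a description because it was chosen on this difference. Apart from Kcnn2, 43 named genes were tested, and 35 of them had a lower mean in the DOX group. How many of all probes tested had a lower mean there was not counted here. Over all probes tested, 16.2% were called lower and 15.5% higher, and the median difference was -0.07. Of the 43, 19 were called lower, 3 were called higher and 21 were not called, and none had a lower difference than Kcnn2. Their median difference was -0.95. The 3 with a difference nearest to that of Kcnn2 were Carhsp1, an RNA-binding protein, Apoe, a lipid carrier, and Prdx2, a peroxidase that removes hydrogen peroxide. On the log2 scale Carhsp1 differed by -1.71 ± 0.23 (standard error from limma), Apoe by -1.68 ± 0.27 and Prdx2 by -1.67 ± 0.10. Since they were picked on this same difference, no test is given. The standard error given for Kcnn2 was computed otherwise, from the SD of each group. The difference of Kcnn2 was 0.98 log2 units below that of Carhsp1. A probe printed 10 times without a gene symbol here (A_51_P213099), singled out after its values were seen, also had lower DOX values. It was at 5.79, 5.49 and 5.59 on the CON arrays and at 3.34, 2.93, 3.47 and 2.20 on DOX replicates 1, 2, 4 and 5, but it was well above background on 4 of the 7 arrays, the CON arrays and DOX replicate 4, so its other DOX values are only bounds and it was not ranked against Kcnn2. The 5′ control spots of Gapdh (-2.22) and Pgk1 (-2.42) lay between Kcnn2 and Carhsp1, Apoe and Prdx2. Actb, at 9.91 ± 0.14 (SD, n = 3) in the CON group and 9.65 ± 0.40 (SD, n = 4) in the DOX group, did not pass the test (adjusted p = 0.306 from limma), and its groups overlapped.

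**Figure D4:**
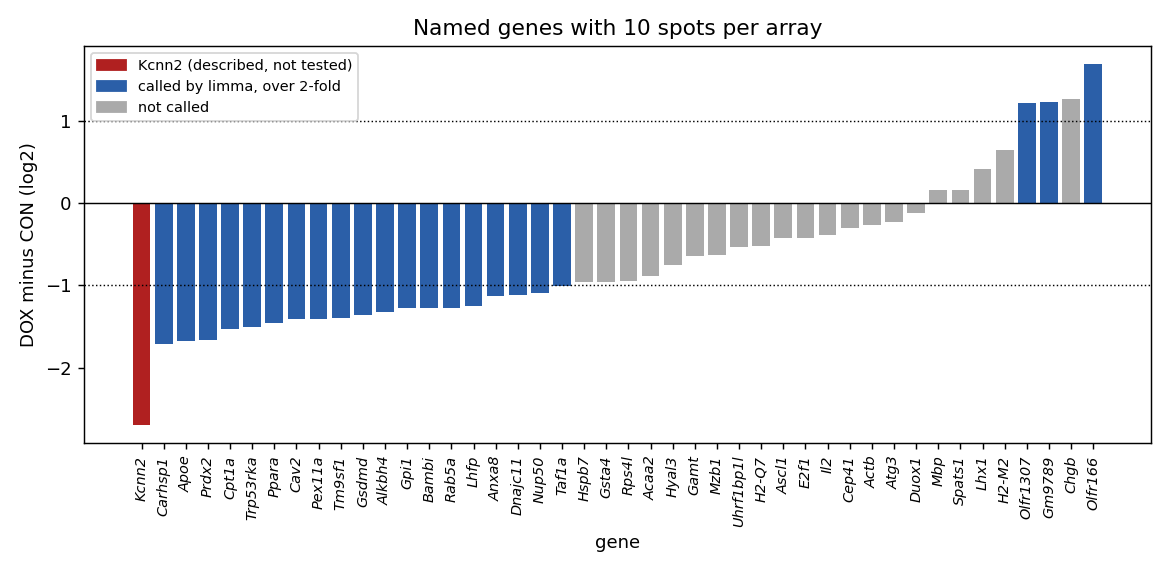
Difference between the groups (y axis; DOX minus CON on the normalized log2 scale) for Kcnn2 and the 43 other named genes with 10 spots per array that were tested (x axis), in order of size. Kcnn2 is at -2.70, and the dotted lines mark a 2-fold change.

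Over the 7 arrays, the named genes most like Kcnn2 by Pearson's correlation of the normalized log2 signal were Gsdmd (r = 0.990), Bambi (r = 0.989) and Ppara (r = 0.979). These correlations are a description over 7 arrays in 2 groups, whose points share the difference between the groups, and the median r over the 43 genes was 0.85. Gsdmd, which forms membrane pores in pyroptosis, was at 9.67, 9.68 and 9.71 on the CON arrays and at 8.84, 8.36, 8.54 and 7.55 on DOX replicates 1, 2, 4 and 5. Its order over the DOX arrays was that of Kcnn2, with replicate 5 lowest and replicate 2 next. Bambi, a decoy receptor of TGF-beta signaling, was at 11.58, 11.63 and 11.72 on the CON arrays and at 10.42, 10.52, 10.62 and 9.93 on DOX replicates 1, 2, 4 and 5. Ppara, a nuclear receptor that controls fatty acid oxidation, was at 11.70, 12.09 and 11.75 on the CON arrays and at 10.71, 10.71, 10.54 and 9.58 on DOX replicates 1, 2, 4 and 5. In each of these 3 genes DOX replicate 5 was the lowest of the DOX arrays, as it was for Kcnn2. Because the 3 genes were picked for their likeness to Kcnn2 over the same arrays, their lower DOX levels and their low replicate 5 are a description, with no test. Of the 43 named genes, 15 had their lowest DOX value on replicate 5 and 12 had their highest DOX value there.

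**Figure D5:**
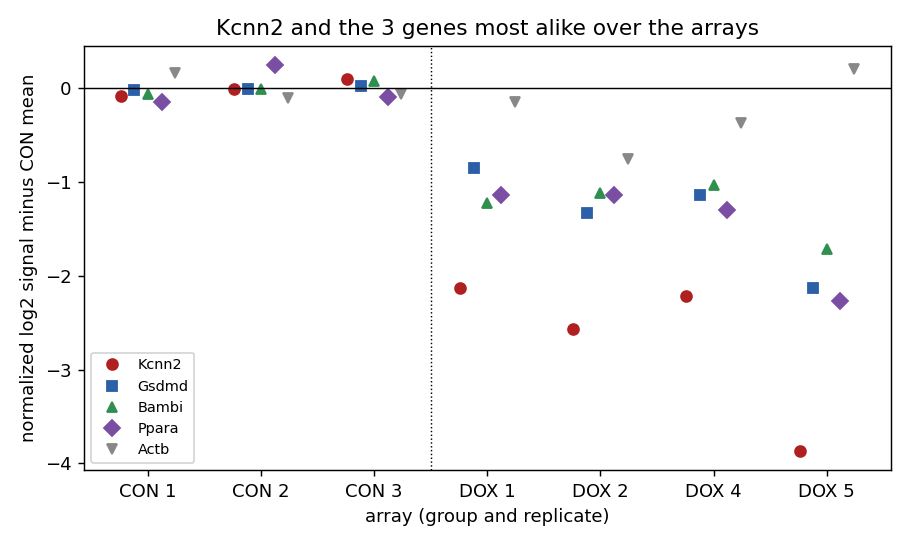
Normalized log2 signal minus the mean of the CON group (y axis) on each array (x axis) for Kcnn2, for Gsdmd, Bambi and Ppara, and for Actb. On DOX replicate 5 Kcnn2, Gsdmd, Bambi and Ppara have their lowest values, while Actb has its highest DOX value of 10.12 before the mean is subtracted.

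The named genes least like Kcnn2, picked for this over the same arrays, were higher in the DOX group. They were Olfr166 (r = -0.93) and Olfr1307 (r = -0.91), which encode odorant receptors, and Gm9789 (r = -0.92), a predicted gene. Olfr166 was at 8.26 ± 0.05 (SD, n = 3) in the CON group and 9.95 ± 0.07 (SD, n = 4) in the DOX group. Its DOX arrays lay between 9.85 and 9.99, in contrast to the range of 1.73 over which those of Kcnn2 lay.

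Other genes of the same current could hardly be followed with names. Names were given here to 46 genes, all among the 50 probes printed 10 times. A gene without a named probe may therefore still have a probe on the array. Of the 57 genes listed for the small-conductance channel family, its partners, calcium entry and release, other cardiac potassium channels and sodium, pacemaker and coupling proteins, 1 had a named probe, and that was Kcnn2 itself. Kcnn1, Kcnn3 and Kcnn4, the other channels of the family, and Actn2, Cacna1c and Ryr2 were not analysed here. The same holds for tissue markers. Of 52 markers of cardiac and other cell types, 1 had a named probe, namely Chgb, a granule protein of neuroendocrine cells and neurons, and none of the 14 cardiomyocyte markers had one, so the heart label was not checked by markers. Chgb was at 7.09, 6.61 and 6.93 on the CON arrays and at 7.73, 7.12, 7.87 and 9.85 on DOX replicates 1, 2, 4 and 5. Its log2 change of 1.27 did not pass the test (adjusted p = 0.0863 from limma), and its highest value lay on the array where Kcnn2 was lowest. The part of Chgb-expressing cells in the Kcnn2 result was not tested. The RefSeq table lists 5 transcripts of Kcnn2, and the probe is named for 1 of them, so levels of single transcripts and binding of related transcripts to the probe were not analysed here.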

How the data were processed

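The authors deposited 1 scanner file per array (Agilent Feature Extraction 11.0.1.1, per the submitters' processing notes), whose processed signal is an intensity background-subtracted within the array. They also deposited a table of log2 values, quantile-normalized per the study's sample sheet, with a median of 6.54 on each array. That table holds no probe printed more than once and so no row for Kcnn2, and served only as an alternative for counts of calls. From the scanner files, processed signals were put on the log2 scale and quantile-normalized over the 61537 spots per array that are not controls, and spots of a probe were averaged, leaving out between 2 and 34 non-uniform spots per array. A probe entered the test if 3 or more of the 7 arrays had it well above background, and DOX was compared with CON by limma 3.58.1 in R 4.3.3, with no covariate and with Benjamini-Hochberg adjustment over all 55657 probes. The mapping of arrays to groups was taken from the labels, and the dose and day from the paper's methods. limma replaced the methods' t-test, and it was tested on simulated data with independent errors. The simulation held none of the differences in brightness between the groups of real arrays, so it does not cover them.

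Gene symbols came from a RefSeq table of assembly GRCm38.p6 for 46 of the 50 probes printed 10 times. The file headers give build mm9, so no coordinates are given. Control spots were given the normalized value of a gene spot of equal brightness. Named genes were Kcnn2, members of the lists of channel and marker genes, the 3 genes with the highest and the 3 with the lowest correlation with Kcnn2, the 3 with the nearest difference, and Actb, Gapdh and Pgk1. Kcnn2 and the lists were chosen with earlier results of these data known. No 2 arrays of a group were copies, since the SD of their log2 differences was 0.36 to 0.60. The number of arrays limits the precision. Alternatives were other scalings, ratios to control genes, background corrections, the median of spots, flagged spots left out, other filters on dim probes, the methods' t-test, the replicate block and leaving out each array.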

Additional observations from a re-analysis of the deposited data

Results flagged for a closer look

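A search for a DOX array far from the other 3 was run on 19 measures, and chance marks about 5% of such groups. Kcnn2 itself was not marked, since the gap from DOX replicate 5 up to the next array was 0.753 of the range of the DOX arrays, under the critical value. Ppara was marked for DOX replicate 5 at 9.58 on the normalized log2 scale, with a gap of 0.854 of the range, but it was picked for its likeness to Kcnn2 over these same arrays, so this is a description and no test. Olfr166 was marked for DOX replicate 2 at 9.85, with a gap of 0.845 of a range that was small.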

How the results depend on the processing

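The difference of Kcnn2 between the groups was negative under 23 of 24 alternatives, and 16 of them moved it by less than 0.63, the pooled SD between arrays. It was smaller with no normalization (-1.44) and with scaling to the median of the other probes printed 10 times (-1.87). Control genes, chosen after seeing the data, gave -1.52 (Gapdh 3′), -1.30 (Pgk1 3′), -0.48 (Gapdh 5′) and -0.27 (Pgk1 5′). Without DOX replicate 5 the 5′ values were -0.13 for Gapdh and 0.073 for Pgk1, the latter with the direction turned. With each array left out in turn, quantile-normalized, the difference was -2.86 to -2.29, and without DOX replicate 5 on the 75th percentile scale it was -2.21. CON and DOX share the numbers 1 and 2, and deviations of arrays with the same number had correlations of 0.03 and 0.004. Whether such arrays shared a step of handling was not tested. In a fit with the replicate block, only replicates 1 and 2 of each group set the difference. The other arrays, DOX replicate 5 among them, did not enter it. With this block Kcnn2 was at -2.30, and 8716 probes were called higher and 9131 lower, against 8603 and 8990 without it. Scaling to the 75th percentile raised the probes called lower to 15323. Normexp on median signals, for these counts chosen after seeing the data, gave 4792 higher and 4312 lower. The cause was not tested. Leaving out each array gave 8254 to 8709 higher and 8628 to 9147 lower. Alternatives on mean spot signals were not run, because the files used here hold median signals.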
